A study of Mus musculus with 12 samples.

Results

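The heavy polysome libraries of livers from mice on a ketogenic diet (2 animals) were set against those from chow-fed mice (3 animals). All 5 animals were male wild-type C57BL/6 mice, and the ketogenic diet, which is rich in fat and poor in carbohydrate, had been given for 24 h. A gene belonged to the comparison when it matched a mouse symbol and had at least 10 counts in 2 or more of the 5 heavy libraries, and 8710 of the 25275 named genes did. A further 74 unnamed identifiers met the count rule, so 8784 were tested together. The series holds 12 libraries, a heavy and a light one from each of 6 livers. The sixth animal, a chow-fed mouse with the S209A change of eIF4E, was left out of the main fit because it is another genotype. The labels give all animals a time of 0 h and name no litter or day, and they do not say whether fractions 2 to 7 or fractions 8 to 13 of the gradient made up the heavy pool. P-values measure the spread between these few animals.

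A sucrose gradient separates mRNAs by the number of ribosomes on them, and mRNAs with many ribosomes sediment as heavy polysomes. The amount of an mRNA in that pool therefore depends both on how much of the mRNA the tissue holds and on how it is loaded with ribosomes. When carbohydrate is scarce the liver burns fatty acids and makes ketone bodies, with PPARα switching on many of the genes involved, while the hepatocyte goes on exporting plasma proteins such as albumin, clotting factors and apolipoproteins.

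The libraries differed in make-up before any gene was compared. Totals were 3924075, 5184912 and 5988255 counts in chow 1, 2 and 3, and 13263355 and 9146545 in keto 1 and 2, but nuclear protein-coding genes held 15.9 to 29.7% of the chow counts and only 5.6 and 6.01% of the keto counts. The depth for nuclear mRNA was thus 625450 to 1776829 counts in chow and 742129 and 549993 in keto. The mitochondrial rRNAs mt-Rnr1 and mt-Rnr2 together held 12.9 to 16.7% of the chow and 47.3 and 74.2% of the keto counts. In chow 1 and chow 2 these rRNAs were the larger in the light library (58.2 and 52.6%), whereas chow 3 had nearly equal shares (13.8% heavy, 13.5% light) and both keto animals had more in heavy than in light (37.6 and 51.8% in light). Per the file headers, the reads of chow 1 and 2 were aligned with Bowtie2 and those of chow 3 with HISAT2, while the headers of both keto tables name no aligner, so diet and processing cannot be told apart. Chow 3 is also called fed in its title. Values without it are given beside the lists and genes it moved most.

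**Figure D1:**
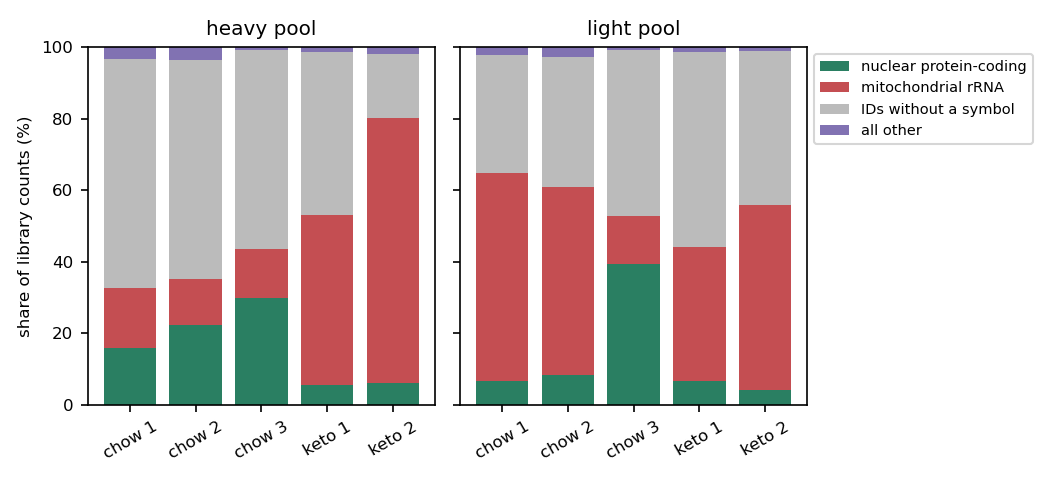
Share of each library's counts (%, vertical axis) in 4 classes, stacked, for the heavy libraries (left) and light libraries (right) of the 3 chow and 2 keto animals. Mitochondrial rRNA took 47.3 and 74.2% of the keto heavy libraries and at most 16.7% of the chow heavy libraries.

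No gene passed edgeR's quasi-likelihood test at an adjusted p under 0.05 (percent called 0 in each direction, lowest adjusted p = 0.189). At an unadjusted p under 0.05 there were 343 genes higher in keto (3.9% of those tested) and 441 lower (5.02%). DESeq2 gave 112 calls, with 31 higher in keto (0.353%) and 81 lower (0.922%), and limma-voom called 4, all higher. Without chow 3, edgeR still called 0 (adjusted p of at least 0.0526). With the title wording as a batch it called 9. These were Pigk, Rn7sk and Rpph1 higher (0.0342%), and Hnrnph2, Hamp, Gm16089, Mup14, Mup9 and Csad lower (0.0683%). Among these libraries only chow 3 is titled fed, so the batch term fits that library alone and amounts to leaving it out. The log2 differences were nearly the same in the 2 fits, as for Hamp (-4.12 in both) and Rn7sk (3.62 in both). The Mup genes are near-identical copies, so their counts are uncertain. The values below are therefore levels and differences that did not pass in edgeR. Keto lay above all 3 chow libraries in 16.4% of tested genes and below all 3 in 14.1%.

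The genes at the head of the list on the higher side were small nuclear RNAs and a mixed set of protein-coding genes. Levels are in CPM, counts scaled to the TMM-adjusted library size, and differences are log2 of keto over chow with a standard error. Pigk encodes the transamidase that attaches GPI anchors to proteins (gene ID 329777, chromosome 3, 152714085 to 152842926 in GRCm38.p6, the reference of all positions given). It stood at 18.9, 13.3 and 3.99 CPM in chow 1, 2 and 3, against 215 and 232 in keto 1 and 2. The groups were 12.1 ± 7.55 (SD, n = 3) and 223 ± 12.2 (n = 2), log2 4.22 ± 0.68 (edgeR adjusted p = 0.189, DESeq2 adjusted p = 2.75e-07). Both keto libraries lay far above every chow library. Dhdh, a dihydrodiol dehydrogenase (gene ID 71755, chromosome 7, 45472956 to 45488888), stood at 14.1, 34.5 and 17.3 CPM in chow, against 250 and 219 in keto, log2 3.41 ± 0.57 (edgeR adjusted p = 0.189). Cyb5r3, which encodes cytochrome b5 reductase, had 229, 257 and 254 counts in chow and 1358 and 1712 in keto, log2 2.89 ± 0.61.

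Lower-expressed genes on that side showed the same separation. Pstpip2, an adaptor protein of myeloid cells, had 9, 11 and 44 counts in chow and 162 and 87 in keto, log2 3.17 ± 0.54. Slc35e2, a member of the solute carrier family, had 6, 21 and 38 counts against 94 and 104, log2 2.84 ± 0.54. Gsk3b, the kinase that phosphorylates glycogen synthase, had 18, 30 and 66 counts against 155 and 93, log2 2.24 ± 0.47. Saa4, a serum amyloid A protein carried on HDL (chromosome 7, 46727992 to 46732603), was at 25.7, 7.83 and 13.3 CPM in chow, against 129 and 93.7 in keto, log2 2.84 ± 0.56. Ttpa, which moves vitamin E in the hepatocyte, was at log2 2.14 ± 0.45, and Fyco1, which links autophagosomes to kinesin, at 2.19 ± 0.47 (edgeR adjusted p of 0.368 and 0.398). In each of these 6 genes the groups did not overlap, which the rule for naming them required.

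On the lower side, Hamp encodes hepcidin, the hormone that limits iron export (gene ID 84506, chromosome 7, 30942368 to 30944029). Its level was 582, 177 and 177 CPM in chow, against 24.8 and 18.7 in keto, and the means were 312 ± 234 (SD, n = 3) and 21.7 ± 4.34 (n = 2), log2 -3.84 ± 0.79 (edgeR adjusted p = 0.368, DESeq2 adjusted p = 2.36e-06). Chow 1 was over 3 times the other chow libraries, and the lowest chow library was still above both keto libraries. Bcap31, a chaperone of the ER membrane (chromosome X, 73686178 to 73717815), had 74, 115 and 162 counts in chow and 7 and 8 in keto, log2 -3.52 ± 0.61 (edgeR adjusted p = 0.189). Apom, the HDL apolipoprotein that carries sphingosine-1-phosphate, was at 30.6, 23.5 and 20.4 CPM in chow, against 5.55 and 5.71 in keto, log2 -2.14 ± 0.50.

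Several of the other leading lower genes act in protein folding and RNA processing. Hspd1 encodes the mitochondrial chaperonin HSP60, and was at 66.7, 56.1 and 71.2 CPM in chow, against 13.4 and 15.0 in keto, log2 -2.18 ± 0.46. St13, the HSP70-interacting cochaperone, was at 32.0, 45.1 and 58.7 CPM against 9.71 and 10.3. Among RNA-binding genes, Hnrnph2 was at log2 -3.47 ± 0.73 and the spliceosome component Ik at -3.08 ± 0.61. Rrp12, which acts in ribosome assembly, had 39, 86 and 48 counts in chow and 4 and 3 in keto. The splicing regulator Nsrp1 was at -2.78 ± 0.68, the chromatin protein Mphosph8 at -2.73 ± 0.63, the redox-sensitive Park7 at -2.18 ± 0.51 and the keratin Krt8 at -2.04 ± 0.49 (edgeR adjusted p of at most 0.462).

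**Figure D2:**
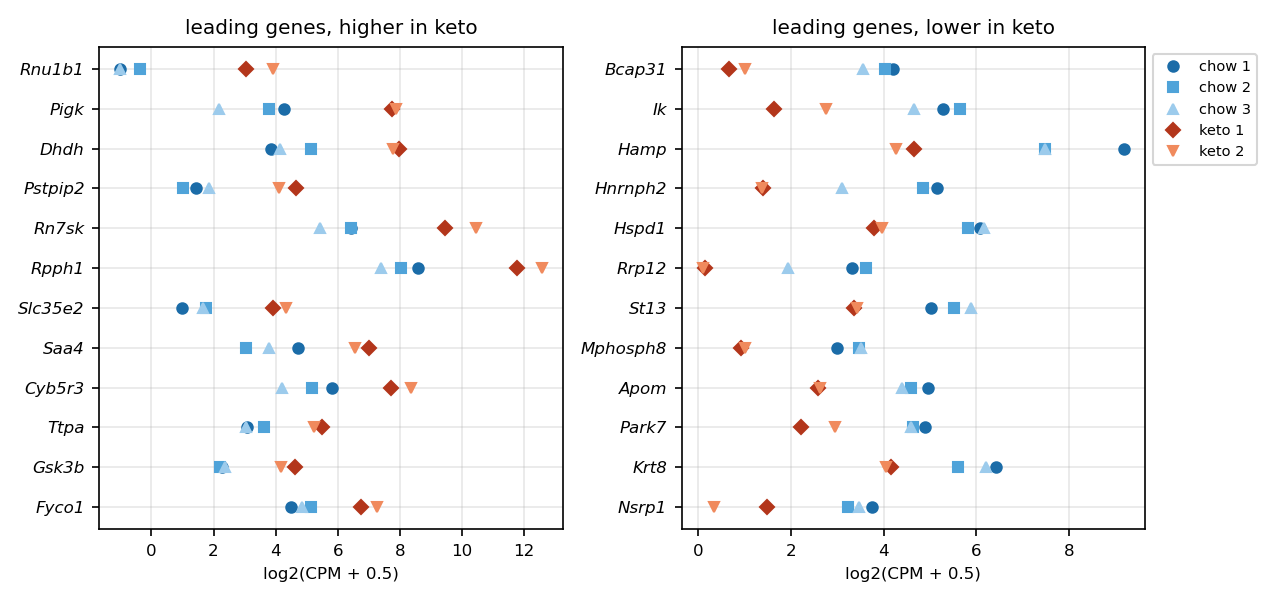
Level of the 24 leading genes in each heavy library, as log2(CPM + 0.5) on the horizontal axis, with 1 marker per library (chow in blue, keto in red). The rule chose genes whose keto and chow libraries do not overlap; Pigk and Dhdh stand at 215 to 250 CPM in keto and under 35 CPM in chow.

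RNAs that are not translated or stay in the nucleus were higher in the keto libraries. Of 19 listed, 13 were measured and 12 of these had a positive difference (51.5% of all IDs tested did), with a median log2 of 2.04 against 0.038 over all IDs, and 8 of 13 had both keto libraries above all chow libraries (16.4% of all IDs). The count was 9 of 13 without chow 3 (25.3% of all IDs) and 9 of 13 without chow 1 (21.6%). Rn7sk, the 7SK RNA that holds back transcription elongation (chromosome 9, 78175302 to 78175633), had 351, 621 and 609 counts in chow and 4547 and 7325 in keto, log2 3.88 ± 0.67 (edgeR adjusted p = 0.189). Rpph1, the RNA subunit of RNase P, had 1597, 1905 and 2370 counts against 22550 and 32103, log2 4.14 ± 0.77 (edgeR adjusted p = 0.292). Neat1, the scaffold of nuclear paraspeckles, was at log2 2.10 ± 0.51 and the cytoplasmic noncoding RNA Norad at 2.69 ± 0.69. Gas5 was the exception (-1.40). Across all 68 lncRNAs 53 were positive, with a median of 1.18.

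The U1 small nuclear RNA Rnu1b1 headed the whole list, on few reads. It had 0, 2 and 0 counts in chow and 50 and 77 in keto, a ratio of 139 (exact 95% counting interval 37.7 to 1160, covering counting error only). Its copy Rnu1a1 had 1395, 2200 and 81 counts in chow and 11624 and 17511 in keto, log2 3.57 ± 1.22. The U1 genes are near-identical, so how reads were split between them is uncertain. The minor spliceosome RNAs Rnu11 and Rnu12 were at log2 0.13 and 1.14, with overlapping groups. The copies of U3, a small nucleolar RNA, were negative, from -1.66 (Rnu3a) to -0.73 (Rnu3b2), also with overlapping groups; 3 of the U3 copies had 0 counts in chow 3.

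Mitochondrially encoded mRNAs, which encode subunits of the respiratory chain and ATP synthase, were positive in 13 of 13, with a median of 1.57, or 1.24 without chow 3. In 11 of the 13 keto lay above every chow library, against 16.4% of all IDs. ND1, a subunit of complex I, was at 31.8, 64.5 and 13.2 CPM in chow, against 194 and 169 in keto, log2 2.31 ± 0.65. COX1, of complex IV, was at 306, 520 and 164 CPM against 1039 and 1283, log2 1.82 ± 0.67. No member passed in edgeR (lowest adjusted p = 0.462), and the lower level of chow 3 (median -1.55 relative to the chow mean) is visible in both genes. These mRNAs are translated inside mitochondria, so their amount in the pool is no measure of cytosolic ribosomes. The nuclear-encoded subunits went with the opposite sign: 54 of 68 measured (of 77 listed) were negative, median -0.71, or -0.38 without chow 3. Cox6b1, of complex IV, was at 12.6, 11.7 and 11.8 CPM in chow, against 3.85 and 1.71 in keto, log2 -2.10 ± 0.59 (edgeR adjusted p = 0.462). The ATP synthase subunit Atp5pb was at -1.76 ± 0.53 and the complex I subunit Ndufa10 at -1.74 ± 0.53.

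**Figure D3:**
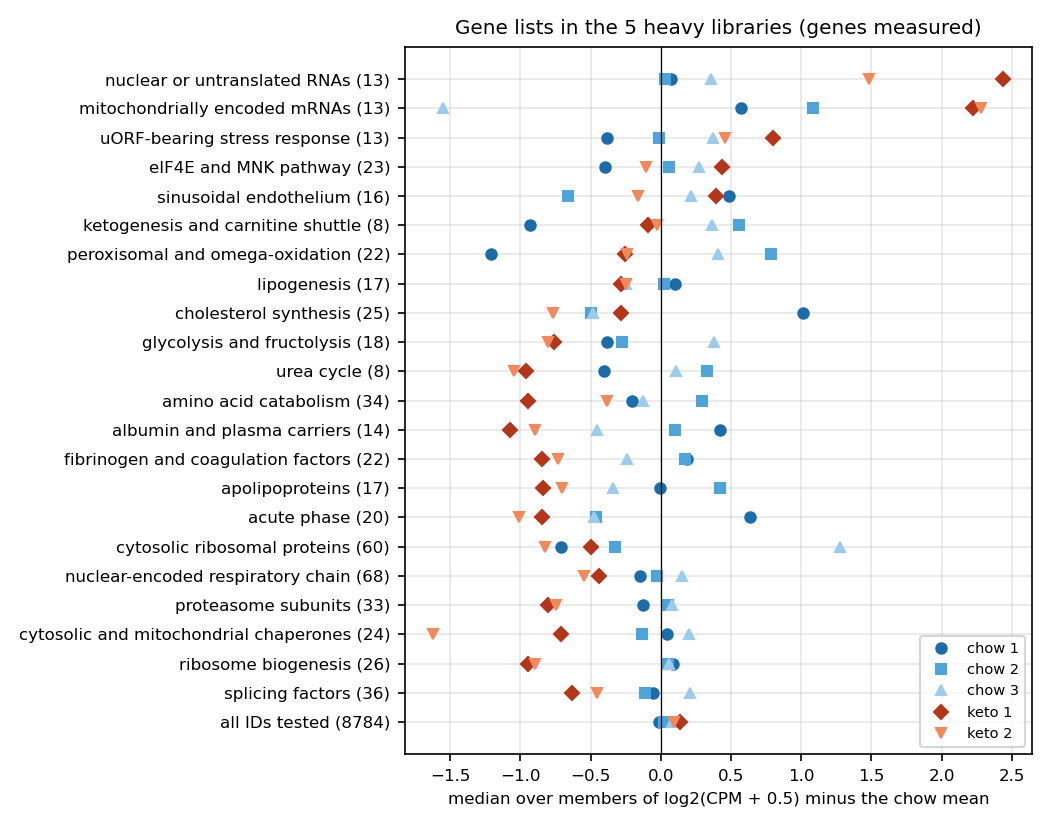
Median over the measured genes of each list of log2(CPM + 0.5) minus the mean of the 3 chow libraries (horizontal axis), 1 marker per heavy library, with the number of genes measured in brackets. Ribosome biogenesis and proteasome lists have chow libraries within 0.2 of 0 and both keto libraries at -0.75 or below, while ketogenesis and cholesterol lists spread mainly with chow 1 and ribosomal proteins with chow 3.

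Proteasome subunits, which degrade ubiquitin-tagged proteins, were negative in 30 of 33 measured (of 39 listed), median -0.80, and 20 of 33 had both keto libraries below all chow libraries, against 14.1% of all IDs. The list's level relative to the chow mean was -0.13, 0.05 and 0.08 in chow 1, 2 and 3 and -0.81 and -0.75 in keto. Psma2, of the 20S core, had 16, 36 and 77 counts in chow and 5 and 2 in keto. Psmd2, of the 19S cap, was at 19.4, 19.1 and 39.2 CPM in chow, against 6.16 and 11.6 in keto, log2 -1.55 ± 0.56 (edgeR adjusted p = 0.485). The core subunit Psmb5 was at -1.83 ± 0.66 and the cap subunit Psmd13 at -1.23 ± 0.49. Without chow 3 the median was again -0.80 and 22 of 33 lay below (21.5% of all IDs), and without chow 1 it was 24 of 33 (20.1%).

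Chaperones of the cytosol and mitochondria were negative in 21 of 24, median -1.21. In 15 of the 24 keto lay below every chow library, against 14.1% of all IDs. Besides Hspd1 and St13, Hsp90aa1, the inducible HSP90, was at 62.6, 27.5 and 132 CPM in chow, against 19.3 and 10.1 in keto, log2 -2.34 ± 0.70, or -1.61 without chow 3. Hspa9, mitochondrial HSP70, was at 70.4, 79.3 and 105 CPM against 27.9 and 29.5, log2 -1.57 ± 0.48, and the small heat shock protein gene Hspb1 at -2.95 ± 0.85. The levels of the list were -0.71 in keto 1 and -1.62 in keto 2, so the keto animals differed by more than the chow animals did (-0.14 to 0.20). ER translocation and folding genes were negative in 17 of 24, median -0.76, or -0.38 without chow 1. Calr, a calcium-binding lectin chaperone, was at 243, 129 and 111 CPM in chow, against 51.3 and 39.8 in keto, log2 -1.82 ± 0.59, and the disulfide isomerase Pdia6 was at -2.02 ± 0.61.

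Ribosome biogenesis factors and splicing factors also lay lower. The former were negative in 23 of 26, median -1.23, with 13 below every chow library (14.1% of all IDs). Their list levels were 0.05 to 0.08 in chow and -0.95 and -0.90 in keto. Nop16 had 30, 36 and 42 counts in chow and 5 and 4 in keto, log2 -2.68 ± 0.86. Pes1, needed for the large subunit, had 8, 14 and 90 counts against 0 and 2. The chow to keto ratio was 25.6 (exact 95% counting interval 6.92 to 214, covering counting error only). Splicing factors were negative in 29 of 36, median -0.69 (-0.39 without chow 3), with 16 below every chow library (14.1% of all IDs). Luc7l3, a U1-associated protein, was at 42.0, 25.3 and 42.8 CPM in chow, against 12.2 and 12.9 in keto, log2 -1.55 ± 0.48, and Prpf31, of the U4/U6 snRNP, was at -2.15 ± 0.75.

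Cytosolic ribosomal proteins and translation factors are the classic carriers of a 5′ terminal oligopyrimidine (TOP) tract, a run of C and T at the start of the mRNA through which mTOR signalling controls their translation. Start sites of 5 of these genes are shown because the list gave a large median that rested on 1 library. Each line has 10 bases before and 20 from the RefSeq start, read 5′ to 3′ on the gene's strand, with the C/T run that begins with C within 1 base of the start in capitals.
Rps6 (chr4:86857348-86857377, minus strand): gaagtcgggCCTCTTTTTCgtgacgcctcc
Rack1 (chr11:48800350-48800379, plus strand): gccgctctttCTTTTTCTCCacagggtcgt
Rplp2 (chr7:141447641-141447670, plus strand): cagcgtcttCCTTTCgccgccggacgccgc
Rpl7a (chr2:26910797-26910826, plus strand): ctcttctttCTTTCTCCagcagccgagcaa
Eef1a1 (chr9:78481705-78481734, minus strand): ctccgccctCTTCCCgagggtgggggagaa
A run of at least 5 C or T at this position was present in 18 of 42 measured ribosomal protein genes with a promoter in the table (42.9%), in 5 of 14 translation factors (35.7%), in 574 of 6738 other protein-coding genes tested (8.52%) and in 2077 of all 32851 promoters (6.32%). Ribosomal protein genes with a run had a median difference of -1.41 and those without one a like value (-1.501). A run was sought only within 1 base of the RefSeq start, so genes without one may still carry a TOP tract. These medians therefore cannot tell TOP mRNAs from others. Both also include the 1 library on which the list median rested.

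Of 88 listed ribosomal protein genes 60 were measured, and 57 were negative with a median of -1.35. Keto lay below all chow libraries in 14 of the 60, against 14.1% of all IDs. The list level was -0.71 and -0.33 in chow 1 and 2, 1.28 in chow 3, and -0.50 and -0.83 in keto, so keto lay within or near chow 1 and 2 and chow 3 stood alone. The median was -0.31 without chow 3. Rplp2, of the ribosomal stalk, shows this with 6, 10 and 834 counts in chow and 10 and 2 in keto, log2 -4.37 ± 1.66, or -0.53 without chow 3. Rpl7a was at 2.18, 1.24 and 9.38 CPM against 2.31 and 1.14, log2 -1.32 ± 0.99, or 0.04 without chow 3. Rps6, the target of S6 kinase, was at 11.4, 12.4 and 30.1 CPM in chow, against 6.32 and 8.00 in keto, log2 -1.34 ± 0.59, or -0.73 without chow 3. Rpl19, at 15.5, 25.4 and 76.9 CPM in chow, against 6.93 and 6.09 in keto, kept the keto libraries lowest. The Rpl7 gene had 29, 22 and 334 counts against 6 and 3, log2 -3.87, and Rack1, a protein of the small subunit, was at -1.45 ± 0.61. Ribosomal protein genes have many processed copies, so their counts are uncertain.

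Translation factors of the TOP class were negative in 15 of 19, median -1.26, or -0.51 without chow 3. Eef1d and Eef1g, subunits of the factor that reloads eEF1A with GTP, were at 12.9, 13.5 and 16.9 CPM (Eef1d) in chow, against 4.93 and 2.48 in keto, and at log2 -1.95 ± 0.56 and -1.77 ± 0.61 respectively. Eef1a1 itself was at 65.0, 108 and 152 CPM in chow, against 69.6 and 51.6 in keto, log2 -0.84 ± 0.55, with overlapping groups.

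The eIF4E and MNK list, which bears on the S209A animal of the series, was balanced, with 12 of 23 positive and a median of 0.002 (0.26 without chow 3, -0.12 without chow 1). Mknk1, a kinase of eIF4E, had 31, 56 and 96 counts in chow, 406 in keto 1 and 24 in keto 2, and Mapk3, which encodes ERK1, had 185, 398 and 401 in chow, 5043 in keto 1 and 200 in keto 2. Only keto 1 was high in either gene. Without keto 1 the differences turned from 2.20 to -0.72 for Mknk1 and from 3.26 to -0.20 for Mapk3. Mknk2 was at log2 1.26 ± 0.64, Eif4ebp1, the eIF4E-binding protein, at -0.36 ± 0.53, and Eif4e at 0.85 ± 1.35 with 0, 2 and 59 counts in chow and 22 and 12 in keto. Without chow 3 the Eif4e difference was 3.98, a fitted value that depends on the prior count since chow then had 2 counts in all. Eif4g2, a scaffold for noncanonical initiation, was at 11.2, 16.6 and 21.8 CPM in chow, against 40.4 and 28.4 in keto.

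Some stress response mRNAs carry upstream open reading frames, which keep some of those mRNAs translated when initiation is limited. Of the genes listed, 10 of 13 measured were positive, median 0.56. Keto lay above every chow library in 5 of the 13, against 16.4% of all IDs. Without chow 3 the median was 0.96 and 7 of 13 lay above, against 25.3% of all IDs. Atf5, a transcription factor of the mitochondrial stress response, was at 16.8, 37.7 and 16.9 CPM in chow, against 61.3 and 95.6 in keto, log2 1.72 ± 0.51 (edgeR adjusted p = 0.462). Slc35a4 had 0, 2 and 2 counts against 20 and 10. Azin1, a regulator of polyamine synthesis, was at 1.03 ± 0.57. Atf4, the factor that drives the response, was at 0.26 with overlapping groups, and Ddit3 and Trib3, 2 of its targets, were negative (-0.43 and -0.52).

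Secreted plasma protein genes, the main export of the hepatocyte, were lower in the keto libraries as a rule. Albumin and plasma carriers were negative in 14 of 14 measured, median -1.05, with 9 below every chow library (14.1% of all IDs). Alb itself was at 2228, 2464 and 1722 CPM in chow, against 1263 and 1868 in keto, log2 -0.45 ± 0.69, and its groups overlapped. Serpina6, which carries corticosteroids, was at 27.2, 7.83 and 6.58 CPM in chow, against 2.16 and 2.67 in keto, log2 -2.50 ± 0.77. The fetuin gene Fetub was at 99.3, 116 and 59.0 CPM against 34.4 and 27.6. Ttr, the thyroid hormone and retinol carrier, was at 760, 404 and 177 CPM against 80.1 and 169, log2 -1.84 ± 0.77.

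Fibrinogen and coagulation genes were negative in 19 of 22, median -0.86, with 11 below every chow library (14.1% of all IDs). Fgb, the fibrinogen beta chain (chromosome 3, 83042246 to 83049863), was at 1635, 658 and 560 CPM in chow, against 129 and 145 in keto, log2 -2.80 ± 0.77 (edgeR adjusted p = 0.462), and the gamma chain Fgg at 572, 138 and 174 CPM against 67.9 and 58.8. Apolipoproteins were negative in 14 of 17, median -0.75, among them Apoh, at 182, 249 and 121 CPM in chow, against 46.4 and 38.5 in keto. Apoa2, an abundant HDL protein, was at 1043, 1356 and 582 CPM against 325 and 359. Complement genes were negative in 19 of 21, median -0.63, or -0.41 without chow 1. The lectin Mbl1 was at 118, 55.9 and 39.5 CPM against 12.5 and 21.5, and C8b, of the membrane attack complex, at log2 -1.55 ± 0.53.

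Acute phase genes were negative in 19 of 20, median -1.07, or -0.72 without chow 1, and Saa4 was the positive member. The serum amyloid gene Saa1 was at 136, 5.77 and 16.7 CPM in chow, against 3.39 and 5.52 in keto, so chow 1 set most of the chow level, and its log2 of -3.56 was -1.39 without chow 1. Crp, the pentraxin, was at 69.2, 62.8 and 20.9 CPM against 13.1 and 13.7, log2 -1.92 ± 0.60.

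The marker lists of hepatocytes show the tissue as labelled. All 10 general hepatocyte markers were measured, and they were negative in 8 with a median of -0.73, or -0.45 without chow 1, and their summed level was 7370 to 12204 CPM in chow, against 6039 and 6886 in keto. Fewer cells of a type and less RNA per cell cannot be told apart in these samples. Periportal markers were negative in 16 of 18 (median -0.93) and pericentral markers in 16 of 18 (-0.90, or -0.38 without chow 2). Without chow 1 the medians were -0.67 and -1.06. Over all 5 libraries keto lay below every chow library in 9 of 18 periportal and 3 of 18 pericentral markers. The share over all IDs was 14.1%. Without chow 1 the count was 9 of 18 in both lists (20.1% of all IDs). The zones were not tested against each other. Hsd17b13, a periportal lipid droplet protein, was at 55.6, 90.4 and 51.1 CPM in chow, against 19.6 and 20.6 in keto, and Oat, a pericentral ornithine aminotransferase, at 219, 448 and 234 against 88.9 and 100.2.

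Other liver cell types left low levels. Sinusoidal endothelium had 16 of 16 markers measured, with a median of -0.04, or 0.12 without chow 3. The markers summed to 71.3 to 163 CPM in chow, against 184 and 129 in keto, and 8 were positive and 8 negative. They ran from Gpr182 at log2 -1.25 to Ptprb at 1.11 ± 0.45. Kupffer cell markers were measured in 10 of 14, with a median of -0.11, or 0.03 without chow 3. They summed to 45.2 to 97.2 CPM in chow, against 76.0 and 54.3 in keto, and 4 were positive and 6 negative. The complement gene C1qb was the lowest of them (log2 -3.75), while C1qa and C1qc were at -1.11 and -1.03. C1qb had 15, 29 and 50 counts in chow and 1 and 2 in keto. Its chow to keto ratio was 14.3 (exact 95% counting interval 4.75 to 70.7, covering counting error only). Stellate cell markers (11 of 14 measured, median -0.44) included Dcn at log2 -1.23 ± 0.50. Erythroid markers (6 of 7, median 0.69, or 0.12 without chow 3) summed to 5.25 to 29.6 CPM in chow, against 13.6 and 23.8 in keto. Cholangiocyte markers were measured in 3 of 9, and no marker of lymphocytes, neutrophils or exocrine pancreas met the count rule. The part of these cells in the differences was not tested.

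Amino acid catabolism and the urea cycle, which dispose of nitrogen, lay lower in keto. The former was negative in 28 of 34, median -0.66 (-1.10 without keto 2), with 14 below every chow library (14.1% of all IDs). Tdo2, which opens the tryptophan ring, was at 152, 388 and 259 CPM in chow, against 62.1 and 67.8 in keto, log2 -2.04 ± 0.62. Cbs, of transsulfuration, was at 167, 62.5 and 51.9 CPM against 18.2 and 26.1, and Bckdha, of the branched-chain dehydrogenase, at 60.2, 85.2 and 38.2 against 20.5 and 21.7. The alanine aminotransferase Gpt was at log2 -1.32 ± 0.50. In the urea cycle 6 of 8 were negative (median -1.01). Otc had 311, 397 and 286 counts in chow and 59 and 57 in keto, log2 -2.32 ± 0.63 (edgeR adjusted p = 0.462). Ass1 was at -1.77 ± 0.64, whereas Slc25a15, the mitochondrial ornithine carrier, was at 17.5, 22.3 and 23.6 CPM against 49.3 and 34.9, with keto above every chow library.

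Fatty acid oxidation and ketogenesis are the pathways the diet is known to engage, and their levels in the keto heavy libraries are given here with no gene having passed in edgeR. Ketogenesis genes were negative in 7 of 8, median -0.14, and all overlapped between the groups. The median was 0.11 without chow 2 and -0.50 without chow 1, and without chow 1 4 of the 8 lay below the remaining chow libraries (20.1% of all IDs). Cpt1a, the gate of fatty acid entry into mitochondria, was at 58.7, 241 and 217 CPM in chow, against 227 and 153 in keto, log2 0.14 ± 0.66. Chow 1 was lowest and keto lay inside the chow range. Mitochondrial β-oxidation was negative in 16 of 17, median -0.48 (-0.80 without chow 1), with Hadhb, of the trifunctional protein, at 4.13, 11.3 and 25.3 CPM in chow, against 1.23 and 2.28 in keto, and Acaa2, a thiolase, at 118, 150 and 112 against 46.7 and 45.9. Acadl was at log2 -1.37 ± 0.47.

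PPARα target genes showed how far chow 1 differed from the other chow animals. Cyp4a14, a fatty acid ω-hydroxylase, had 100, 10027 and 9894 counts in chow 1, 2 and 3 and 1575 and 1261 in keto. Cyp4a10 was at 19.2, 801 and 326 CPM in chow, against 170 and 158 in keto. Chow 1 was thus far below keto and chow 2 and 3 above it, and neither difference passed (log2 -1.53 ± 1.18 and -1.22 ± 1.10). The same order held for Acot1, at 2.18, 49.5 and 16.5 CPM against 7.55 and 11.2. The lipase inhibitor Angptl4 was at 3.40, 55.5 and 30.9 CPM in chow, against 37.4 and 43.6 in keto, and the hormone Fgf21 had 0, 18 and 45 counts against 14 and 22. Pdk4, which shuts off pyruvate oxidation, had at most 15 counts in any library. The lipid droplet coat gene Plin2 was at 62.9, 137 and 94.2 CPM in chow, against 42.4 and 50.7 in keto, below every chow library, log2 -1.07 ± 0.53. Fabp1, the liver fatty acid binding protein, was at 280, 321 and 334 CPM against 80.9 and 61.3, log2 -2.13 ± 0.57. Peroxisomal and ω-oxidation genes were negative in 19 of 22 (median -0.77), with 3 below every chow library (14.1% of all IDs). Their list level was -1.21, 0.78 and 0.40 in chow 1, 2 and 3, and -0.26 and -0.24 in keto. Keto thus lay between the chow animals. Other PPARα targets were positive in 10 of 19 (median 0.007, or -0.21 without chow 1). Mgll, a monoacylglycerol lipase, was at 5.34, 26.2 and 24.4 CPM in chow, against 48.4 and 42.3 in keto.

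**Figure D4:**
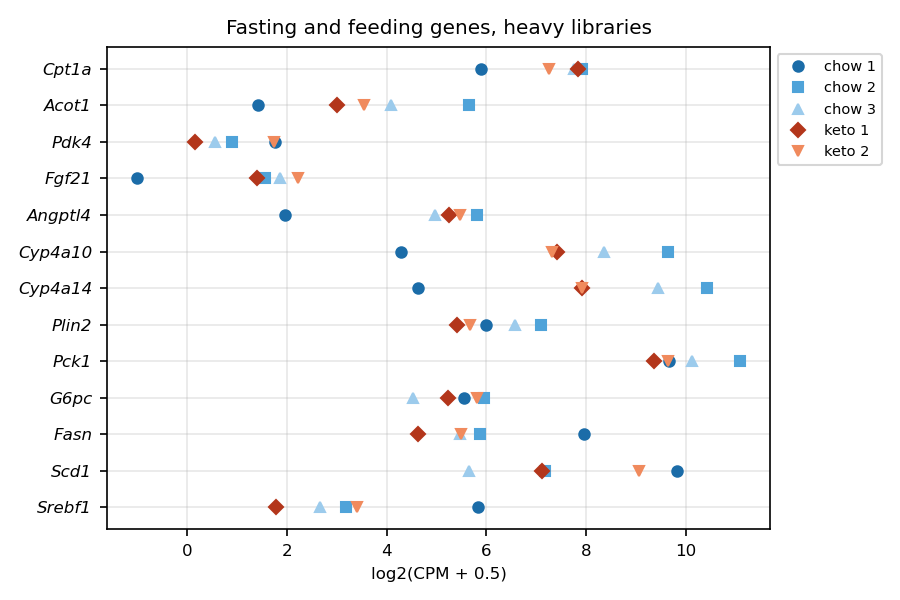
Level of 13 genes of fasting and feeding metabolism in each heavy library, as log2(CPM + 0.5) on the horizontal axis, 1 marker per library. Chow 1 has the lowest Cyp4a14 (24.3 CPM) and the highest Fasn (249 CPM), and both keto libraries lie inside the chow range for 7 of the 13 genes.

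In chow 1 Fasn, Srebf1, Scd1 and the cholesterol synthesis list ran the other way, but the lipogenesis list as a whole did not. Its level was 0.10, 0.02 and -0.25 in chow 1, 2 and 3, and -0.29 and -0.25 in keto. Its median was -0.20 also without chow 1. Members differed, with Elovl6 and Lpin1 lowest in chow 1. Fasn, fatty acid synthase, was at 249, 58.1 and 43.7 CPM in chow, against 24.3 and 44.6 in keto, log2 -1.76 ± 0.80, or -0.61 without chow 1. Its regulator Srebf1 was at 56.8, 8.66 and 5.88 CPM against 2.93 and 10.1 (log2 -1.86, or -0.20 without chow 1). Scd1, the stearoyl-CoA desaturase, was at 900, 144 and 49.6 CPM against 138 and 530, and its difference of -0.12 became 1.75 without chow 1. Within lipogenesis 12 of 17 were negative (median -0.20), yet the elongase Elovl6 had 2, 16 and 40 counts in chow and 119 and 32 in keto, log2 2.66 ± 0.76 (edgeR adjusted p = 0.462), and Elovl5 was at 50.2, 52.6 and 39.1 CPM against 90.4 and 89.9. Cholesterol synthesis was negative in 20 of 25 (median -0.67), and its median was 0.05 without chow 1. Mvd, which makes isopentenyl diphosphate, was at 13.8, 4.40 and 4.06 CPM in chow, against 1.08 and 2.28 in keto, log2 -2.12 ± 0.82.

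Among carbohydrate genes, glycolysis and fructolysis were negative in 16 of 18, median -1.04, or -0.54 without chow 3. Eno1, enolase, was at 39.1, 51.8 and 102 CPM in chow, against 16.6 and 13.1 in keto, log2 -2.11 ± 0.56 (edgeR adjusted p = 0.462), Gpi1 at 13.8, 12.2 and 33.7 against 7.39 and 2.28, and Pgk1 had 18, 24 and 424 counts against 2 and 14 (log2 -3.11, or -1.37 without chow 3). The gluconeogenic enzyme Pck1 was at 808, 2172 and 1106 CPM in chow, against 657 and 795 in keto, below every chow library, log2 -0.91 ± 0.71. G6pc, which releases free glucose, was at 46.6, 61.6 and 22.7 CPM against 37.3 and 56.0, inside the chow range. The glucagon receptor Gcgr was at 20.4, 21.9 and 32.4 CPM against 42.1 and 50.7.

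Gene size ran with the sign of the difference. Over 4 equal classes of genomic span, from the shortest (334 to 11200 bases) to the longest (58607 bases and more), the median heavy difference was -0.24, -0.06, 0.11 and 0.27, while the light medians were -0.02, -0.07, -0.12 and -0.19. In the longest class chow 3 lay at 0.28, keto 1 and 2 at 0.37 and 0.29, and chow 1 and 2 at -0.10. The order in the heavy pool thus also set chow 3 apart from chow 1 and 2.

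The light libraries of the same animals were set beside these differences. All 12 leading higher genes and 11 of the 12 leading lower genes had the same sign in light, and all 24 had the smaller difference there, with medians of -1.17 in light and -2.75 in heavy for the lower genes. The genes were chosen on their heavy values, so these counts are a description only. In the light pool edgeR called 0 IDs, with 552 at an unadjusted p under 0.05 (6.28%). Park7 was the one with the opposite sign, at log2 0.40 ± 0.58 in light and -2.18 ± 0.51 in heavy, and its interaction of diet and pool was -2.75 ± 0.67 (edgeR adjusted p of at least 0.265 for the 24 genes). Across all 8784 IDs the interaction test called 1 (0.0114%), with 513 at an unadjusted p under 0.05 (5.84%). It called 230 without chow 3 (61 higher and 169 lower), the animal whose heavy and light libraries were most alike in rRNA share. The medians of heavy over light for nuclear RNAs were -1.76, -1.20 and 0.20 in chow 1, 2 and 3, and 0.75 and 0.23 in keto. Keto and chow 3 thus lacked the depletion of nuclear RNA from the heavy pool that chow 1 and 2 had, and the part of this in the diet differences was not tested.

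The lists differed in what they did in light. Proteasome subunits had a median of -0.10 in light and -0.80 in heavy, apolipoproteins 0.10 and -0.75, and albumin and carriers -0.16 and -1.05. Splicing factors (-0.78 in light, -0.69 in heavy) and mitochondrially encoded mRNAs (1.19 and 1.57) were alike in both pools, and these differences between pools were tested gene by gene only.

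**Figure D5:**
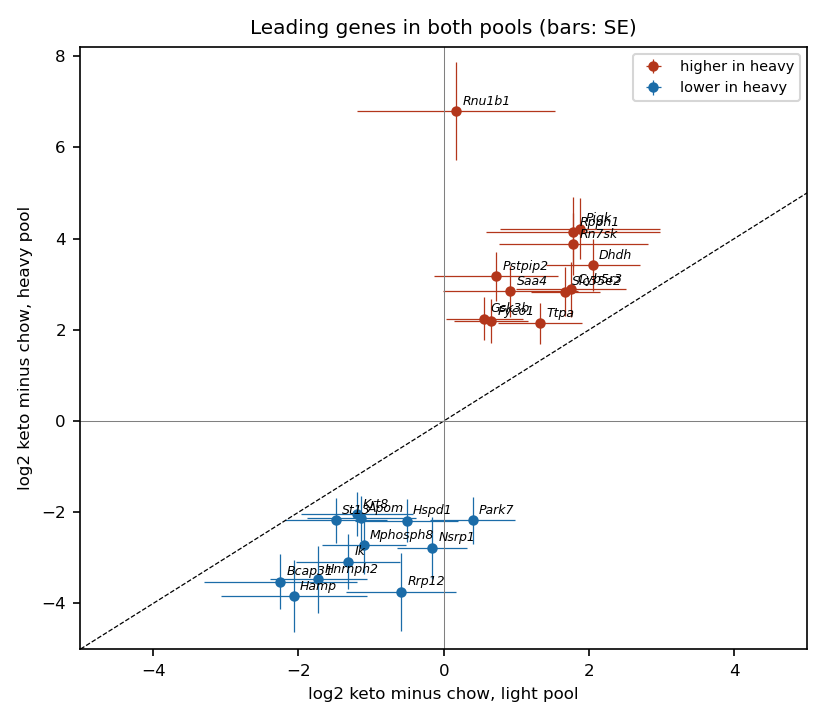
Log2 difference of keto over chow in the light pool (horizontal) and the heavy pool (vertical) for the 24 leading genes, with standard errors as bars and the line of equal difference dashed. The genes were chosen by their heavy values; 23 of 24 share the sign in both pools, and the value of Rnu1b1 depends on the prior count because chow had 2 counts in all.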

How the data were processed

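Liver polysome RNA (10 ng per library) was prepared with a stranded low-input total RNA kit, per the labels' protocols. The deposited tables hold raw counts per Entrez ID, and Trimmomatic, HISAT2, StringTie and mm10 are named in the submitters' processing notes. For the counting tool, its strand setting and all versions the sources used here state nothing. Antisense, overlapping and near-identical genes are therefore uncertain.

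IDs were matched to symbols, biotypes and promoters in RefSeq's GRCm38.p6 tables. IDs with at least 10 counts in 2 of 5 libraries were fitted with edgeR 4.0.16 (TMM scaling, quasi-likelihood test, two-sided, Benjamini-Hochberg, threshold 0.05) in R 4.3.3. Standard errors are the log2 difference over the square root of F. DESeq2 1.42.0 and limma 3.58.1 were alternatives. The interaction fit had the animal as a block. On simulated data with 8784 genes edgeR called 11% of genes with log2 changes of 2 and 91% at 4, with 3 false calls. The changed genes were all at or above the median level, and no library was made to stand apart. Genes below the median level were not simulated with a change. Named genes were the 12 per direction with the smallest p at or above median expression whose groups did not overlap, without predicted genes and pseudogenes, a set of fixed genes (some not reported here), up to 4 members per list, and others chosen after their values were seen. Members and lists were chosen with earlier results of these data known. Protein length was not analysed here; genomic span, a fit on nuclear protein-coding genes only and the counts of non-overlapping genes without chow 3 or chow 1 were added after seeing the data.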

Additional observations from a re-analysis of the deposited data

Results flagged for a closer look

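The predicted pseudogene transcript Gm13498 was the only feature called in the test of whether the diet difference differed between the heavy and light pools, at log2 -3.85 (edgeR interaction of diet and pool, animal as a block, adjusted p = 0.0134). Its heavy counts were 150, 519 and 7 in chow 1, 2 and 3 and 109 and 26 in keto, so the chow animals ranged from below both keto animals to above them. The call was lost without the animal block (adjusted p = 0.999), without chow 1 (0.194), without chow 2 (0.277) and without keto 2 (1), and was kept without keto 1 (0.0427) and without chow 3 (1.03e-07), where 230 features were called in all. All these edgeR fits gave a negative value (-4.53 to -3.35).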

How the results depend on the processing

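edgeR's count of 0 calls in heavy became 112 with DESeq2, 4 with limma-voom, 101 with no filter and 92 with the replicate block. It became 9 with title wording as a batch, a term that fits chow 3 alone. The count stayed at 0 under the other alternatives and with each chow library left out. The shared replicate numbers did not pair the animals (r = -0.08 and 0.06 across genes). Light calls went from 0 to 5 with the replicate block. The interaction had 1 call, 0 with no animal block, and 0 to 230 with an animal left out. Of the 126 named genes followed through the alternatives, 9 turned sign under at least 1 of them. Not every gene named in the text was among the 126. Outside them, Rpl7a, Rnu11 (-0.27) and Atf4 (-0.02) turned sign without chow 3, and Gas5 (0.01) with the replicate block. Further genes outside the 126 may also have turned. Pdk4, at 0.0069, was -0.0243 with DESeq2 size factors, -0.0241 with DESeq2, -0.0357 with TMM on nuclear genes, -0.0318 with all 12 libraries and -0.0318 with S209A, -0.00809 with limma-voom, -0.00604 without a filter, -0.0346 with nuclear genes only, -0.0157 with upper quartile scaling, -0.51 with the replicate block and -0.30 with the title batch. Cyp4a10 (0.37), Cyp4a14 (0.37) and G6pc (-0.23) turned with the replicate block, G6pc (-0.22) with the title batch and Scd1 (0.52) with limma-voom. Among the 126, the ranges that crossed 0 with a library left out were Cpt1a -0.31 to 0.46, Pdk4 -1.50 to 0.69, Angptl4 -0.13 to 1.22, G6pc -0.27 to 0.43, Scd1 -1.44 to 1.75, Mknk1 -0.72 to 3.05 and Mapk3 -0.20 to 4.15. The causes were not tested. None of the 24 leading genes turned sign. The rule that chose them required groups that do not overlap, so leaving out a library could hardly turn them, and this is a description only. Of 40 list medians, 32 kept 1 sign under all alternatives (28 negative, 4 positive). Under at least 1 alternative 21 of the 40 moved by at least the SD of the chow list levels (63 of 754 values). Nuclear protein-coding depth was 742129 and 549993 counts in keto, and its effect on the calls was not tested.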
